A study of Mus musculus with 20 samples.

Results

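Heme is the iron-porphyrin that cytochromes P450, catalase and other liver proteins carry. It is made in a chain of enzymes that starts in the mitochondrion, where ALAS1 joins glycine and succinyl-CoA, passes through the cytosol and ends in the mitochondrion, where ferrochelatase inserts iron. In the liver the step made by ALAS1 limits the rate, Alas1 transcription is repressed by heme and induced by many foreign compounds, and most of the heme goes to cytochromes P450. Transcript levels of 7 enzymes of this chain (Alas1, Alad, Uros, Urod, Cpox, Ppox and Fech) were examined here. They were taken by symbol from the count table of 21780 genes, and all 7 were among the 15522 genes tested.

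The livers came from male mice of the C57Bl/6J strain. All 4 groups ate a high-fat diet (HFD, 42% of calories from fat) for 12 weeks from 8 weeks of age, and no group on a normal diet was analysed here. At 10 weeks of age each mouse was gavaged once, with corn oil (HFD control), Aroclor 1260 at 20 mg/kg (HFD + Aroclor), PCB 126 at 20 µg/kg (HFD + PCB 126) or both at these doses (HFD + Aroclor + PCB 126, the combined exposure). All mice were fasted for about 6 h before the livers were taken. Aroclor 1260 is a commercial mixture of mostly non-dioxin-like polychlorinated biphenyls (PCBs), and PCB 126 is a dioxin-like congener that activates the aryl hydrocarbon receptor (AHR). Polyadenylated RNA of 20 whole livers was sequenced, 5 mice per group. Total counts were 21836506 to 36854887 per library. Levels are given as CPM (the count relative to the library's total, after TMM scaling). Where genes are compared with each other, they are given as FPKM (CPM per kilobase of all annotated exons of the gene, merged). In a whole liver, fewer cells of a type and less RNA per cell cannot be told apart.

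Of the known AHR targets, Cyp1a2 stood above HFD control in both groups given PCB 126. For Cyp1a1, every mouse lay above all controls only after PCB 126 alone. Cyp1a2, a cytochrome P450 of the liver, was at 1120.0 to 2601 CPM in HFD + PCB 126, 537 to 992 CPM in the combined exposure and 249 to 517 CPM in HFD control, without overlap among these 3 groups (log2FC 2.04 and 1.00 against control). Cyp1a1 was at 4.09, 7.80, 4.60, 314 and 62.1 CPM in HFD + PCB 126, but at 0.792 to 2.62 CPM in the combined exposure, against 0.219 to 0.940 CPM in HFD control.

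The libraries also differed in whether GC-rich or GC-poor genes were counted more. A library's slope, in log2 deviation from the mean of all libraries per 10 percentage points of GC, was 0.006 to 0.450 in HFD control, -0.098 to 0.131 in HFD + Aroclor, -0.092 to 0.365 in HFD + PCB 126 and -0.611 to -0.119 in the combined exposure. The combined exposure and HFD control did not overlap (difference -0.59; two-sided exact permutation test, p = 0.00794, the smallest that 252 splits allow; adjusted over the 3 comparisons with control, exact p = 0.0238). The Aroclor libraries were also below control (difference -0.23, exact permutation p = 0.0238, adjusted 0.0357), and PCB 126 differed by -0.13 (exact permutation p = 0.286). The calls of the members in the combined exposure, and the counts of gene lists, are therefore given also after a correction that removes a smooth GC trend from each library (GC correction). As the slope and the exposure moved together, a GC-dependent response of the livers and a difference between the libraries cannot be told apart.

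Promoters of the members that carry the comparisons are shown first: Alad and Urod, whose levels ran together over the mice, Ppox, the member called after GC correction, Cpox, which moved the other way, and Alas1, the rate-limiting step. RefSeq (GRCm38.p6) gave windows from 250 bases before to 50 bases after the transcription start for 6 of the 7 members, 9 windows in all. Fech had no entry. Capitals mark matches, on either strand, to GCGTG (the core of the AHR response element), CACGTG (an E-box), TGCGCA or CGCANGCGC (a short and a longer form of the core of the site of NRF1, nuclear respiratory factor 1). The longer form was added after the matches of the short one had been seen. It can overlap GCGTG, as it does in Alas1. The windows, each on the minus strand except that of Cpox, are chr9:106247681-106247980 (Alas1), chr4:62519860-62520159 (Alad), chr4:116994364-116994663 (Urod), chr1:171281137-171281436 (Ppox) and chr16:58669958-58670257 (Cpox).
Alas1: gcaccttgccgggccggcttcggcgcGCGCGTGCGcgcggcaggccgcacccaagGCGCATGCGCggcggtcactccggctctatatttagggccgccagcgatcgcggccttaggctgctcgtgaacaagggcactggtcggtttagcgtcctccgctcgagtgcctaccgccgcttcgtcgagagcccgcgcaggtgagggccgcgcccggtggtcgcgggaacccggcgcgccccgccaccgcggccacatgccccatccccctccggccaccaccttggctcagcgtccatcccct
Alad: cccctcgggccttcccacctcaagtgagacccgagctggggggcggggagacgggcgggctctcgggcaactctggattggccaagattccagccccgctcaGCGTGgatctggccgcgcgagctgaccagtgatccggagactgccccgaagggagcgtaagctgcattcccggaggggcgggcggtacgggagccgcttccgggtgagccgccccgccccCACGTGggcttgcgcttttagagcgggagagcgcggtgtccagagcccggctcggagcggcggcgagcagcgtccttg
Urod: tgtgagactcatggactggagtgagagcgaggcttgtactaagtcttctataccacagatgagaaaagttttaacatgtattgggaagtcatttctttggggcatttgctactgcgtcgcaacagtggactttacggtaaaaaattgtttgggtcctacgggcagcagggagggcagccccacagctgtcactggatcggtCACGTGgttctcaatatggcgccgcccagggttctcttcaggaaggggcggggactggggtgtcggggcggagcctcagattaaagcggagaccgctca
Ppox: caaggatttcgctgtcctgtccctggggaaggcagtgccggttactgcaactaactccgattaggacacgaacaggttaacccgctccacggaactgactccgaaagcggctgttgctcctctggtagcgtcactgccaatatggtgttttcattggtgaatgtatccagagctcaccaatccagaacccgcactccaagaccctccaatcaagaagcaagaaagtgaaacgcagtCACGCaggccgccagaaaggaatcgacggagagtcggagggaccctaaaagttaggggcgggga
Cpox: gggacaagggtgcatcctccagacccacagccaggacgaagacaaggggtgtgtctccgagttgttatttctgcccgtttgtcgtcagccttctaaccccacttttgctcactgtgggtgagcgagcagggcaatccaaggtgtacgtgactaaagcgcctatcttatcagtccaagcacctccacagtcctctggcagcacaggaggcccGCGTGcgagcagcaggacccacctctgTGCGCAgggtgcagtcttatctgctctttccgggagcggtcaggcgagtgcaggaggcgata

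GCGTG was found in 6 of the 9 windows, from 4 of the 6 members (Alas1, Alad, Cpox and Ppox). It was found in 32.4% of 32851 mouse promoter windows of the same length. CACGTG was found in 4 of 9 windows (Alad, Urod and Uros) and in 7.15% of all windows. TGCGCA was found in 1 of 9 (Cpox) and in 7.76%, and CGCANGCGC in 3 of 9 (Alas1 and Uros) and in 6.31%. Windows of the same gene can overlap and share a match, as with GCGTG in Alas1 and Alad. A match describes letters in this window only.

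The enzymes stood at very different levels. In HFD control, Alas1 was the most abundant at 193 ± 29.2 FPKM (mean ± SD, n = 5 mice here and in all groups below), followed by Alad (60.9 ± 20.7), Urod (33.8 ± 5.49), Cpox (19.7 ± 2.65), Fech (11.5 ± 1.02), Uros (8.74 ± 0.934) and Ppox (5.40 ± 1.51). Each gene was above the next in that order in 5 of 5 control mice, and the ranges of neighbours overlapped only for Alad and Urod. Alas1 was 3.18 times the level of Alad. This order depends on the exon length used, which is the same for every mouse. By CPM, the control mean of Fech (160) stood above those of Cpox (131), Alad (114) and Urod (87.5). Over all 20 mice the mean FPKM of Alas1 lay at percentile 98.2 of the tested genes and that of Ppox at percentile 67.9.

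**Figure D1:**
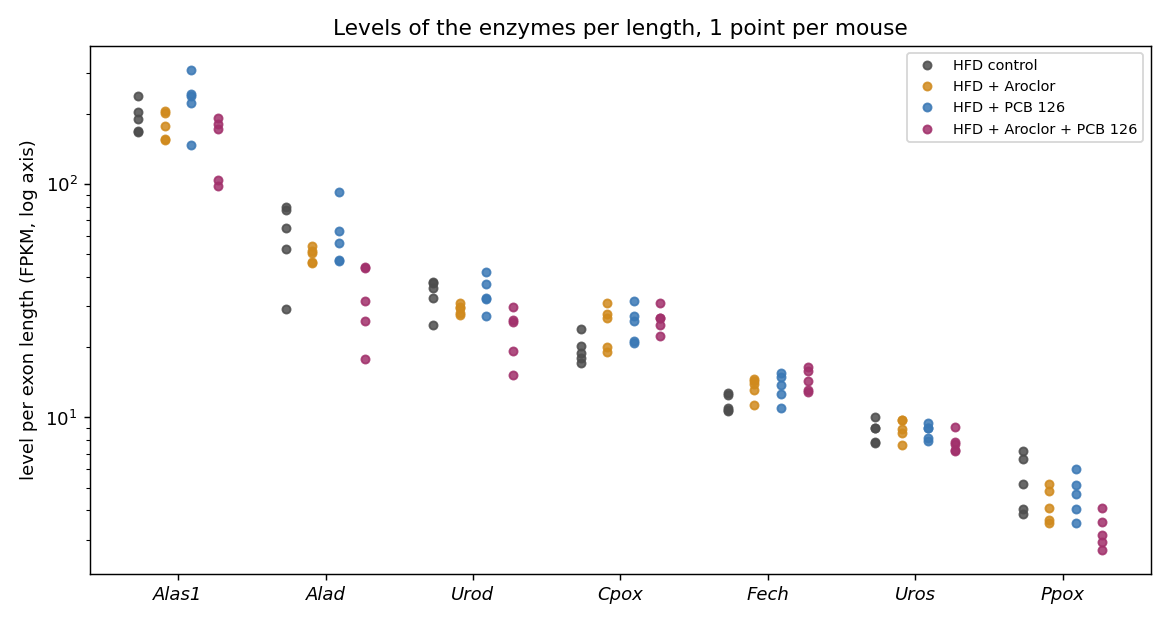
Level per exon length (FPKM, log axis) of each enzyme, with 1 point per mouse and a colour per exposure group. In HFD control the means run from 193 for Alas1 to 5.40 for Ppox, and the Alad points of the combined exposure (17.8 to 43.9) reach down into the range of Urod.

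Between exposures, the enzymes did not move as a block. In the combined exposure Alad, Urod and Ppox were lower than in HFD control and Cpox and Fech were higher, while Alas1 and Uros did not pass the test. Lower calls made up 17.0% of all tested genes in this comparison and higher calls 15.8%, so that 3 of 7 and 2 of 7 members stood against a background in which many genes of the liver were called. The median log2FC was -0.37 over the 7 members and 0.00 over all tested genes. After GC correction 1 of the 7 members, Ppox, remained past the threshold, where 7.09% of tested genes were called lower and 4.22% higher. No member passed the test after Aroclor alone, where 0.0% of tested genes were called, or after PCB 126 alone, where 0.116% were (18 genes). After GC correction no member passed in either (adjusted p = 0.369 or above and 0.260 or above). Without adjustment, 2677 and 2280 genes had a p under 0.05 in these comparisons.

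**Figure D2:**
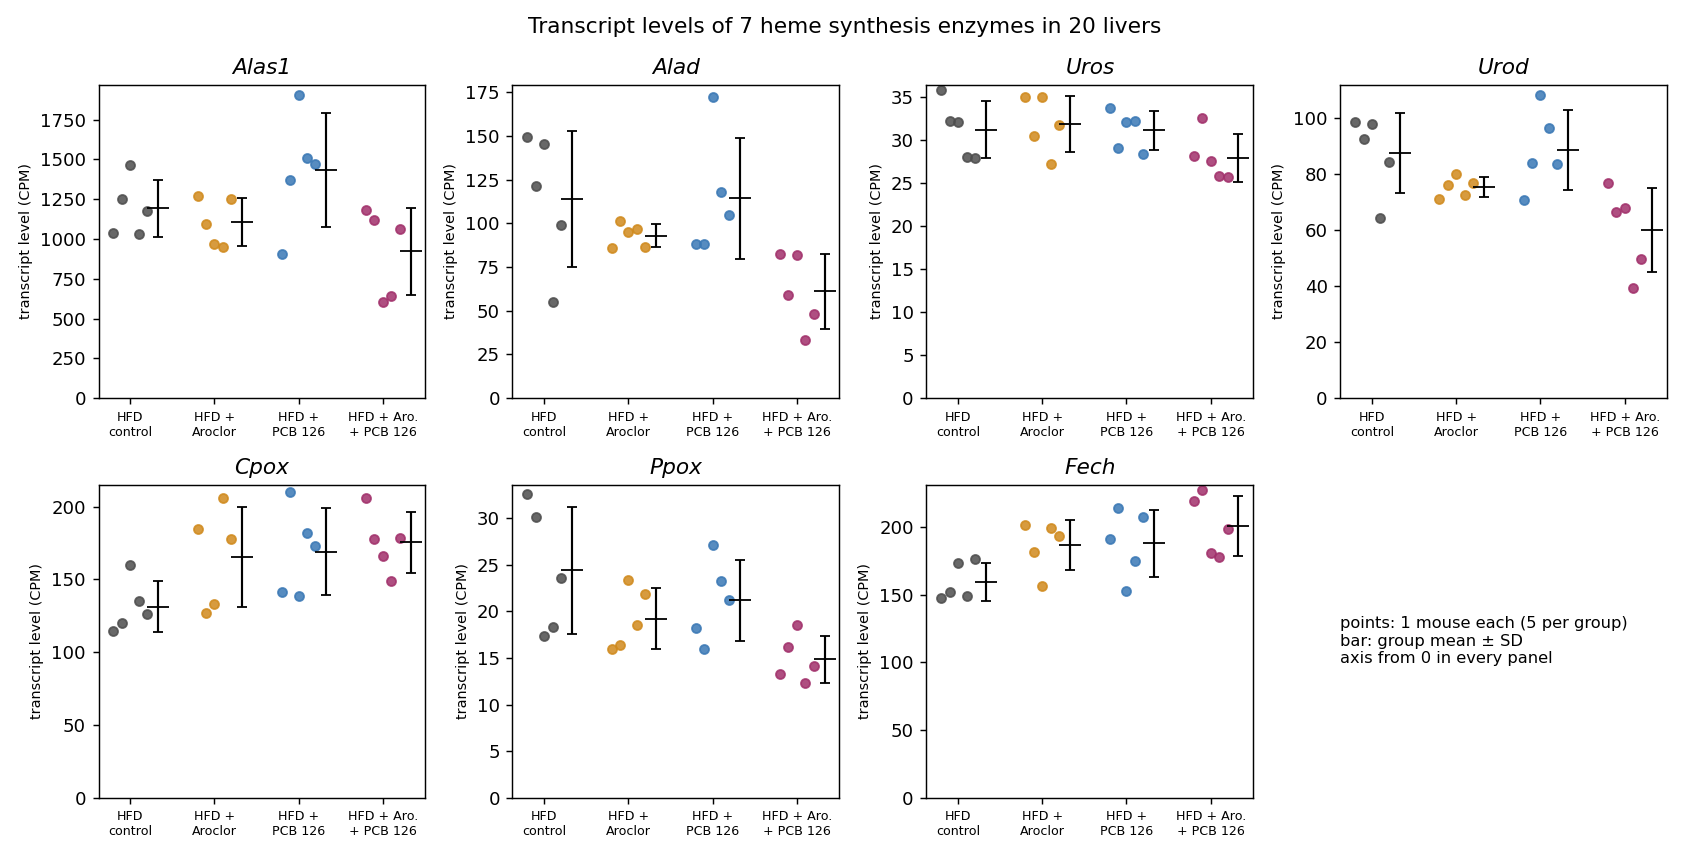
Transcript levels (CPM, axes from 0) of the 7 enzymes, with 1 point per mouse and the group mean ± SD beside the points. Alad, Urod and Ppox have their lowest group mean, and Fech and Cpox their highest, in the combined exposure; the only enzyme whose combined and control points do not overlap is Fech.

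Alas1 encodes 5-aminolevulinate synthase, the rate-limiting first enzyme. In replicates 1 to 5 its level was 1041, 1253, 1468, 1029 and 1177 CPM in HFD control and 1269, 1096, 968, 952 and 1249 CPM in HFD + Aroclor. It was 905, 1374, 1904, 1508 and 1469.9 CPM in HFD + PCB 126, and 1183, 1119.6, 606, 644 and 1060.2 CPM in the combined exposure. The highest mouse of all was 1 of HFD + PCB 126 and the lowest 2 were of the combined exposure, whose other 3 mice lay within the control range. Against HFD control the log2FC was -0.11 ± 0.19 (SE; adjusted p = 0.779) for Aroclor, 0.26 ± 0.19 (adjusted p = 0.553) for PCB 126 and -0.37 ± 0.19 (adjusted p = 0.151) for the combination. Between the exposures themselves, Alas1 was lower in the combined exposure than in HFD + PCB 126 (0.644 times; log2FC -0.63 ± 0.19, adjusted p = 0.0336), with -0.43 (adjusted p = 0.206) after GC correction. The call was lost when any 1 of 6 of the 10 mice compared was left out (PCB 126 replicates 3, 4 and 5 and combined replicates 3, 4 and 5; adjusted p up to 0.102).

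Alad encodes aminolevulinate dehydratase, which joins 2 molecules of aminolevulinate into porphobilinogen. Its levels were 149, 121, 145, 54.7 and 98.9 CPM in HFD control and 82.2, 59.2, 82.0, 33.4 and 48.2 CPM in the combined exposure. Control replicate 4 lay among the combined mice and the other 4 control mice lay above all of them. Alad was 0.536 times the control level (log2FC -0.90 ± 0.25, adjusted p = 0.0104). With GC correction this became -0.49 ± 0.19 (adjusted p = 0.106). In HFD + Aroclor it was 85.8, 101, 95.0, 96.6 and 86.4 CPM, within the control range (log2FC -0.29 ± 0.25, adjusted p = 0.539). In HFD + PCB 126 it was 88.1, 87.9, 172, 118 and 105 CPM (log2FC 0.00 ± 0.25, adjusted p = 0.998). The combined mice lay entirely below both single exposures. Such a separation downward occurred in 5.93% of tested genes against PCB 126 and in 4.17% against Aroclor. The test called the difference from PCB 126 (log2FC -0.90 ± 0.25, adjusted p = 0.0249; -0.57, adjusted p = 0.108 after GC correction) and not that from Aroclor (log2FC -0.61 ± 0.25, adjusted p = 0.161; -0.33, adjusted p = 0.502 after GC correction).

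Urod encodes uroporphyrinogen decarboxylase, the enzyme whose loss of activity in the liver underlies porphyria cutanea tarda and the uroporphyria caused by dioxin-like compounds. Its level was 98.5, 92.5, 98.0, 64.2 and 84.4 CPM in HFD control and 76.7, 66.4, 67.7, 39.3 and 49.8 CPM in the combined exposure. As with Alad, the lowest control mouse was replicate 4 and the lowest mouse of all was combined replicate 4. Urod was 0.685 times the control level (log2FC -0.55 ± 0.15, adjusted p = 0.0107; -0.29, adjusted p = 0.105 after GC correction). It was 71.1, 76.0, 80.2, 72.4 and 76.8 CPM in HFD + Aroclor (log2FC -0.22 ± 0.15, adjusted p = 0.454) and 70.8, 84.1, 108, 96.3 and 83.5 CPM in HFD + PCB 126 (log2FC 0.02 ± 0.15, adjusted p = 0.973). After PCB 126 alone, a difference in Urod transcript levels was not detectable with 5 mice per group. The combined exposure was lower than PCB 126 (log2FC -0.56 ± 0.15, adjusted p = 0.0229; -0.35, adjusted p = 0.0949 after GC correction). The calls of Alad and Urod against HFD control held without each mouse in turn, and those against PCB 126 were lost for both genes without PCB 126 replicate 3 or 4 or combined replicate 4 or 5 (adjusted p up to 0.0828 and 0.0696).

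Ppox encodes protoporphyrinogen oxidase, the last step before iron is inserted, and had the lowest level of the 7 enzymes. Control mice had 32.6, 30.1, 17.4, 18.3 and 23.5 CPM and mice of the combined exposure 13.2, 16.1, 18.5, 12.3 and 14.1 CPM, and 4 of these 5 lay below all controls. Ppox was 0.608 times the control level (log2FC -0.72 ± 0.18, adjusted p = 0.00558). It is the member that kept its call after GC correction (log2FC -0.49 ± 0.15, adjusted p = 0.0379), and it kept the uncorrected call without each mouse in turn (adjusted p up to 0.0213). With the GC slope of the library as a covariate instead, the sign of its log2FC changed (0.19). The single exposures gave 15.96, 16.4, 23.4, 18.6 and 21.83 CPM for Aroclor (log2FC -0.34 ± 0.18, adjusted p = 0.319) and 18.2, 15.9, 27.1, 23.2 and 21.2 CPM for PCB 126 (log2FC -0.21 ± 0.18, adjusted p = 0.625). Against PCB 126 the combined exposure stood at -0.51 ± 0.18 (adjusted p = 0.0565; -0.33, adjusted p = 0.216 after GC correction). It passed the threshold when PCB 126 replicate 1 or 2 or combined replicate 3 was left out (adjusted p = 0.0438, 0.0373 and 0.0337), and in the DESeq2 fit. The exons of Ppox share 791 bases (17.5% of their length) with B4galt3 on the opposite strand. How HTSeq was set for strand is not given in the sources used here, so reads of these bases could have been counted for either gene or for none.

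Cpox encodes coproporphyrinogen oxidase, the step before Ppox, and was higher, not lower, in the combined exposure. Its level was 115, 120.1, 159.5, 135 and 126 CPM in HFD control and 206, 178, 166, 149 and 178 CPM in the combined exposure, where 4 of 5 mice lay above all controls. It was 1.34 times the control level (log2FC 0.42 ± 0.14, adjusted p = 0.0301; 0.27, adjusted p = 0.219 after GC correction). Levels after the single exposures were close to this: 185, 127, 133, 206 and 178 CPM for Aroclor (log2FC 0.34 ± 0.14, adjusted p = 0.252) and 141, 210.2, 138, 182 and 173 CPM for PCB 126 (log2FC 0.36 ± 0.14, adjusted p = 0.261), with 3 mice of each above all controls. Tested directly, the combined exposure stood at 0.08 against Aroclor and 0.06 against PCB 126 (log2FC, adjusted p = 0.753 and 0.807). The combined call against HFD control was lost when any 1 of 6 mice was left out, control replicates 1, 2 and 5 and combined replicates 1, 2 and 5 (adjusted p up to 0.0799). Its exons share 204 bases with Gpr15 on the opposite strand (3.06% of their length).

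Fech encodes ferrochelatase, which completes heme by inserting iron. Control mice had 148, 152, 173, 149 and 177 CPM and mice of the combined exposure 219, 227, 181, 178 and 199 CPM, so that the groups did not overlap, as was the case, in the upward direction, for 10.6% of tested genes. Fech was 1.26 times the control level (log2FC 0.33 ± 0.11, adjusted p = 0.0207), but 0.10 ± 0.09 (adjusted p = 0.575) after GC correction. Its level was 202, 182, 156, 199 and 193 CPM after Aroclor (log2FC 0.22 ± 0.11, adjusted p = 0.282) and 191, 214, 152, 175 and 207 CPM after PCB 126 (log2FC 0.24 ± 0.11, adjusted p = 0.307). Tested directly, the combined exposure stood at 0.11 against Aroclor and 0.10 against PCB 126 (log2FC, adjusted p = 0.554 and 0.531). The combined call against HFD control was lost without control replicate 1 or 2 or combined replicate 1 or 2 (adjusted p up to 0.0607).

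Uros encodes uroporphyrinogen III synthase, which closes the ring in the isomer used for heme, and varied least. It was at 27.9 to 35.9 CPM in HFD control, 27.3 to 35.02 CPM in HFD + Aroclor, 28.4 to 33.8 CPM in HFD + PCB 126 and 25.7 to 32.6 CPM in the combined exposure. The groups overlapped throughout, and the log2FC against control was 0.03 ± 0.10, -0.01 ± 0.10 and -0.16 ± 0.10 (adjusted p = 0.883, 0.990 and 0.210).

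**Figure D3:**
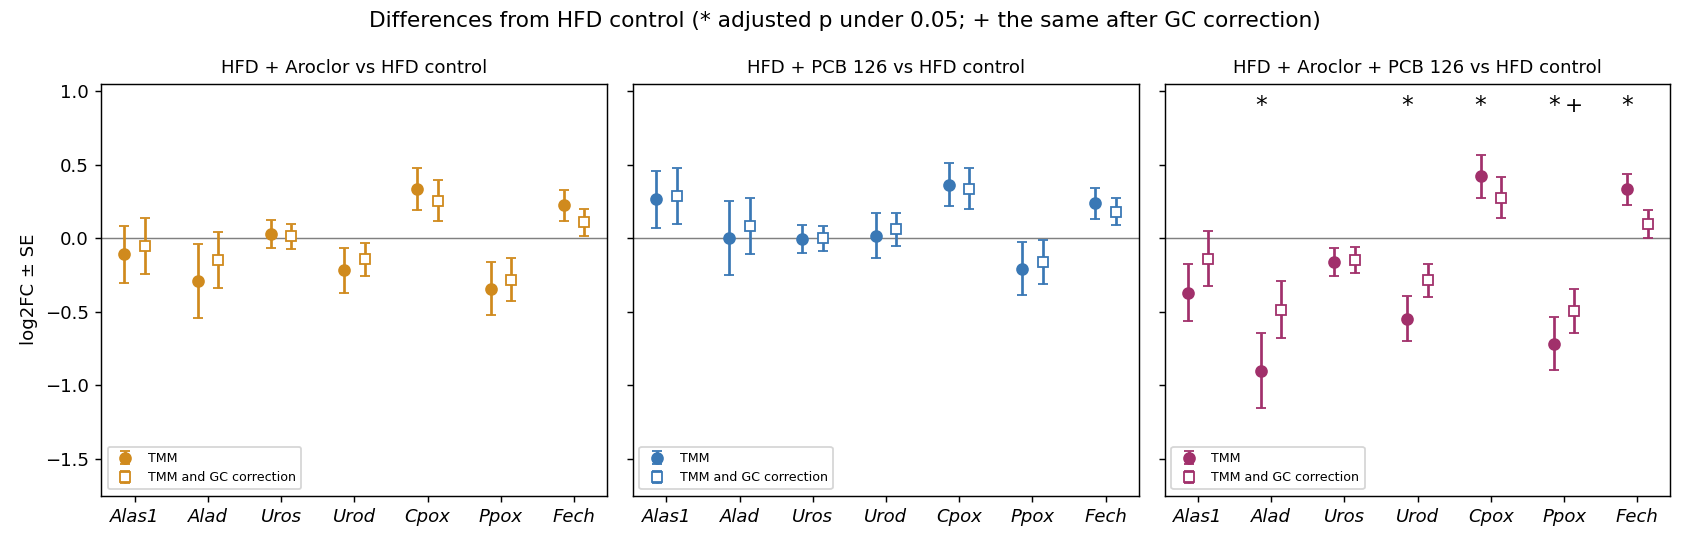
log2FC ± SE against HFD control of each enzyme for the 3 exposures, without (filled) and with (open) GC correction, an asterisk or plus marking an adjusted p under 0.05. Of the 5 enzymes called in the combined exposure, only Ppox (-0.49) is called after the correction.

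Whether the combination differed from each single exposure was tested directly. Against PCB 126, 3 of 7 members were lower (Alas1, Alad and Urod, above) and 0 higher, where 11.0% of tested genes were lower and 5.64% higher. After GC correction 0 of 7 passed, with 201 genes called in all. Against Aroclor, 0 of 7 passed, where 0.412% of tested genes were called. The interaction, which compares the combined difference with the sum of the single ones, called 0 of 7 members and 0.0% of tested genes (1846 genes had an unadjusted p under 0.05; DESeq2 called 1 gene). For Alad it was -0.61 ± 0.36 (adjusted p = 0.498) and for Fech -0.13 ± 0.15 (adjusted p = 0.773). The comparisons with HFD control share the same 5 control mice, and those of the combined exposure share its 5 mice.

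The GC-poorer enzymes were higher and the GC-richer ones lower in the combined exposure, though not in strict order of GC content. Genes of 45% to 50% GC, where Cpox (47.7%) and Fech (46.0%) lie, had a median log2FC of 0.14, and 68.01% of them were above 0. Genes of 50% to 55%, where Uros (50.3%), Ppox (53.1%), Alas1 (53.5%) and Urod (53.9%) lie, had a median of -0.18. Genes of 55% to 60%, where Alad (56.2%) lies, had a median of -0.53, and 6.45% were above 0. All 7 members had the sign of the median of their class, and Alad, Urod, Ppox, Cpox, Fech and Alas1 lay further from 0 than it. With the GC slope of the library as a covariate, the log2FC of Alad, Uros, Urod and Ppox changed sign (0.50, 0.048, 0.26 and 0.19). How much of each member's difference belongs to the libraries' GC dependence was not tested further.

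**Figure D4:**
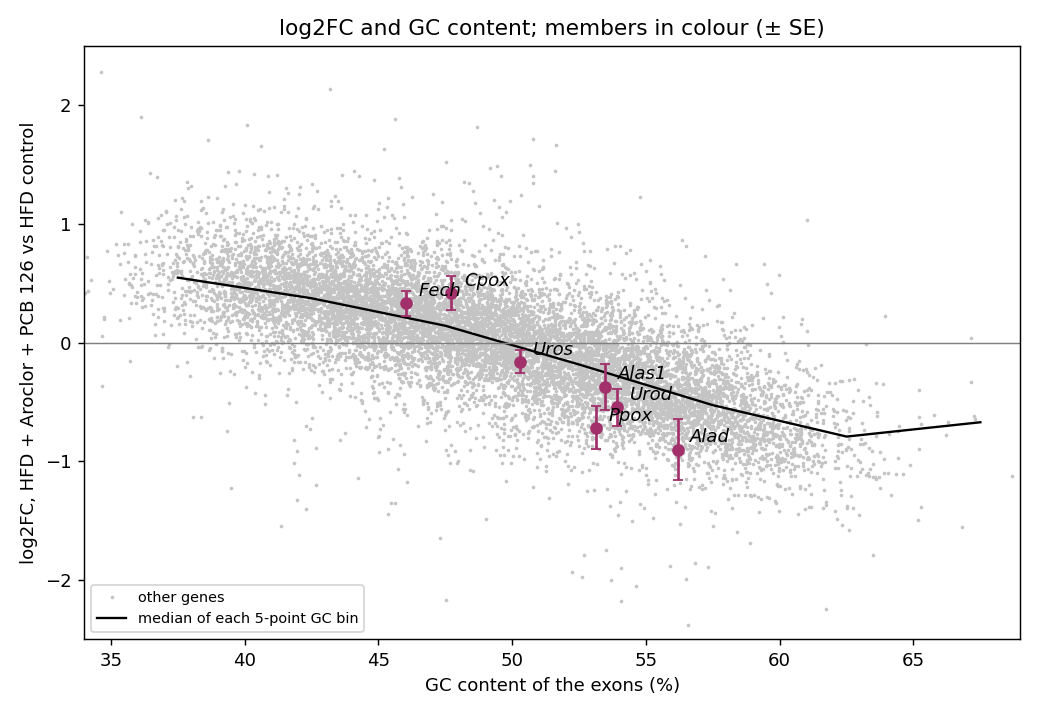
log2FC of the combined exposure against HFD control and GC content (%) of each gene's longest transcript, which the axis labels as exons. Genes with a mean of at least 1 CPM are grey, with the median of each 5-point GC bin (line) and the 7 enzymes (± SE). The median falls from 0.55 at 35% to 40% GC to -0.79 at 60% to 65%; Fech and Cpox lie above 0 at 46.0% and 47.7% GC and the other 5 enzymes below 0 at 50.3% or more, with Ppox (-0.72) lower than the GC-richer Alas1 and Urod.

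Over the 20 mice, Alad and Urod had the highest correlation of the 21 pairs of members (Pearson's r = 0.96 of log2 CPM; 0.93 within groups, 0.91 after GC correction). Cpox and Fech came next (r = 0.80, 0.74 after GC correction), and Ppox and Fech had the lowest (r = -0.66, -0.32 after GC correction). These values are descriptions. The genes of a library share its depth, its GC dependence and its animal, and 12 of the 21 pairs were positive.

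**Figure D5:**
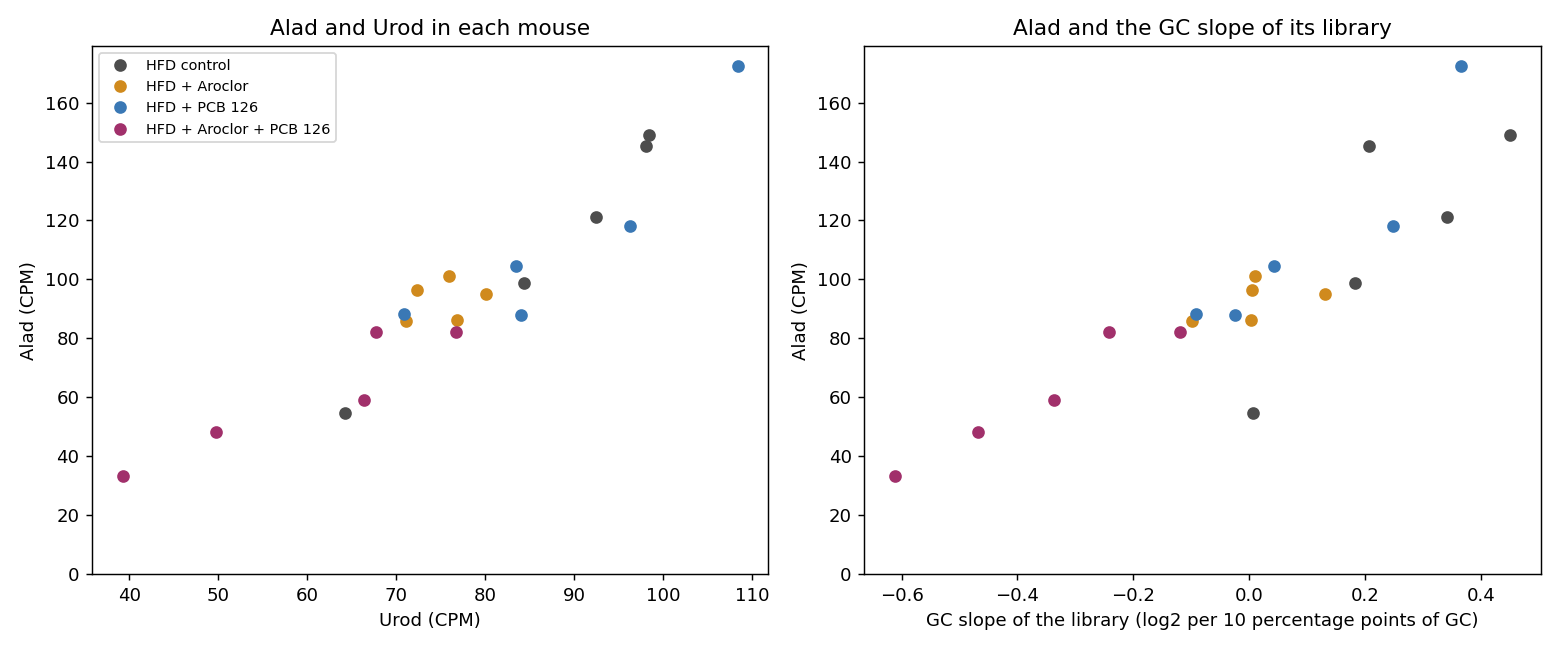
Alad against Urod (left, both in CPM) and Alad against the GC slope of its library (right; log2 per 10 percentage points of GC), with 1 point per mouse. Mice with more Urod had more Alad (r = 0.96 of log2 CPM over 20 mice), and the 5 combined libraries have the 5 lowest slopes, from -0.611 to -0.119; control replicate 4 (54.7 CPM) lies below the other libraries of its slope.

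The genes whose log2 CPM ran most like each member over the 20 mice were searched among 8869 genes with a mean of at least 5 CPM. They were Wbp1 (r = 0.99) and Galk1 (0.99) for Alad, Hpn (0.98) and Stard10 (0.98) for Urod, and E4f1 (0.97) and Kmt5c (0.97) for Ppox. For Fech they were Gphn (0.94) and Crebl2 (0.94), for Cpox Peli2 (0.89) and Harbi1 (0.89), for Alas1 Hpd (0.84) and Sil1 (0.83), and for Uros Alg9 (0.82) and Eipr1 (0.82). After GC correction the r of Wbp1 with Alad was 0.97 and that of Harbi1 with Cpox 0.47. The longest transcripts of the partners of Alad, Urod and Ppox had 56.0% to 61.4% GC, and those of the partners of Cpox and Fech 43.1% to 48.1%.

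The counts of the following gene lists in the combined exposure stand beside 15.8% of all tested genes higher and 17.0% lower, and 4.22% and 7.09% after GC correction. Among 12 genes that act on Alas1, 3 were higher and 3 lower, and 2 and 2 after GC correction. Nr1d1, which encodes the circadian repressor REV-ERBα, was at 10.03 to 26.8 CPM against 61.0 to 71.3 CPM in HFD control (log2FC -1.86 ± 0.26, adjusted p = 0.000487; -1.42, adjusted p = 0.000955 after GC correction). It was at 16.05 to 40.1 CPM after PCB 126, also below all controls (log2FC -1.18 ± 0.25, adjusted p = 0.0520). After GC correction it was lower there too (log2FC -1.12 ± 0.20, adjusted p = 0.0215), the 1 gene of this list called after PCB 126. Ppargc1a, which encodes PGC-1α, a coactivator that induces Alas1 in fasting, was at 9.54 to 11.9 CPM against 4.56 to 5.80 CPM (log2FC 0.97 ± 0.14, adjusted p = 0.000505; 0.52, adjusted p = 0.0148 after GC correction). Clpp, a subunit of a mitochondrial protease that degrades ALAS1, was lower (log2FC -0.89 ± 0.19, adjusted p = 0.00226; adjusted p = 0.0660 after GC correction). Alas1 itself did not pass the test in this comparison.

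Of 13 genes of heme transport, 4 were higher and 3 lower, and 2 and 1 after GC correction. Slc25a38, which carries glycine into mitochondria for the first step, was lower (log2FC -0.85 ± 0.18, adjusted p = 0.00193; -0.44, adjusted p = 0.0200 after GC correction). Tspo was lower too (log2FC -0.91 ± 0.19, adjusted p = 0.00184; -0.33, adjusted p = 0.0936 after GC correction). Of 9 genes of heme breakdown and scavenging, 1 was higher and 2 lower, and 0 and 1 after GC correction. Blvrb (biliverdin reductase B; log2FC -0.77 ± 0.24, adjusted p = 0.0182) and Lrp1, the receptor of heme-hemopexin (log2FC -0.73 ± 0.20, adjusted p = 0.00802), were lower, and Ugt1a1, which conjugates bilirubin, was higher (log2FC 0.72 ± 0.20, adjusted p = 0.00967). None of these 3 passed after GC correction (adjusted p = 0.0976, 0.348 and 0.0558), which called Blvra, biliverdin reductase A (named after its values were seen), lower (log2FC -0.45, adjusted p = 0.0332; -0.14, adjusted p = 0.412 before it). Hmox1, the inducible heme oxygenase, was at 9.13 to 15.95 CPM after PCB 126 and 15.7 to 28.3 CPM in HFD control (log2FC -0.84 ± 0.20, adjusted p = 0.0653), and at -0.36 ± 0.19 (adjusted p = 0.158) in the combined exposure. Hpx, hemopexin, did not pass in any of the 3 comparisons with control.

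Of 19 hemoproteins, 6 were higher and 2 lower in the combined exposure, and 2 and 1 after GC correction. Among those higher were Cyp7a1, the rate-limiting enzyme of bile acid synthesis (log2FC 1.34 ± 0.33, adjusted p = 0.00456; 0.83, adjusted p = 0.0668 after GC correction), and Cyp1a2 (1.00 ± 0.23, adjusted p = 0.00325; 1.17, adjusted p = 0.00481 after GC correction). After PCB 126 alone, where 0.116% of all tested genes were called, 2 of 19 were higher, Cyp1a1 (log2FC 6.93 ± 1.08, adjusted p = 0.00950) and Cyp1a2. The 0 of 7 heme synthesis enzymes called there says little of them at that share. Cyp2b10, a target of the receptor CAR, was at 2.89 to 30.7 CPM after Aroclor and 0.351 to 6.62 CPM in HFD control (log2FC 1.97 ± 0.75, adjusted p = 0.222). Of 13 genes that supply glycine, succinyl-CoA, vitamin B6 or iron-sulfur clusters, 4 were higher and 4 lower, and 1 and 3 after GC correction. Among them Slc25a28, a mitochondrial iron importer, was lower (log2FC -0.72 ± 0.17, adjusted p = 0.00377), and Pdxk, pyridoxal kinase, was higher (log2FC 0.58 ± 0.15, adjusted p = 0.00703). Slc25a28 and Pdxk passed after GC correction (-0.47 and 0.85, adjusted p = 0.0250 and 0.00267), which also called Pdxk higher after PCB 126 (log2FC 0.71, adjusted p = 0.0392). Slc25a37, another mitochondrial iron importer of this list, lay the other way. It was at 64.1 to 87.8 CPM (mean 74.3) in the combined exposure and 32.6 to 69.5 CPM (mean 51.0) in HFD control. After Aroclor alone, where 0.0% of all tested genes were called, 0 genes of any of these lists passed.

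Heme is also made in red cell precursors, through Alas2. Of 11 erythroid markers 8 could be tested and 0 changed in any comparison with control; Epb42 and Gata1 had 7 counts each over all libraries and Ahsp was not matched. Their summed level was 178 to 367 CPM in HFD control and 158 to 296 CPM in the combined exposure. Alas2 was at 112 to 177 CPM in HFD control and 102 to 161 CPM in the combined exposure (log2FC -0.17 ± 0.13, adjusted p = 0.349). Of 8 hepatocyte markers 4 were lower in the combined exposure (Apoa1, log2FC -0.78, Ttr, -0.70, Asgr1, -0.47, and Serpina1c; 1 after GC correction), with a summed level of 94207 to 124115 CPM against 99969 to 105463 CPM. Most of this sum is Alb, which was not called (mean 71216 CPM in the combined exposure and 63441 CPM in HFD control), so the sum says little of the called markers. Of 6 stellate cell markers 3 were higher (Lrat, log2FC 0.85, Dcn, 0.60, and Reln) and 1 lower (Des, -1.38), and 1 and 0 after GC correction (summed level 301 to 350.3 CPM against 137 to 291 CPM), of 6 macrophage markers 1 was higher (Adgre1, log2FC 0.82; 0 after GC correction; 165 to 225 CPM against 137 to 297 CPM), of 5 endothelial markers 1 was lower (Stab2, log2FC -0.50; 1 after GC correction; 114 to 139 CPM against 88.3 to 179 CPM), and of 4 cholangiocyte markers 0 passed (3.24 to 7.73 CPM against 3.93 to 8.21 CPM). Their part in the differences of the enzymes was not tested.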

How the data were processed

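RNA-seq libraries of 20 mouse livers (5 per group) were analysed. The authors deposited raw counts per Ensembl gene, made from polyadenylated RNA with stranded libraries in 2 sequencing runs, whose libraries are not named, alignment to GRCm38.p6 with STAR 2.6 and counting with HTSeq 0.10.0; annotation release and strand setting are not given in the sources used here. Symbols, exon lengths and GC content came from GENCODE M21 (21754 of 21780 IDs matched). The exon length is that of all exons of a gene merged, and the GC content that of its longest transcript. Genes whose counts summed to 10 or more were scaled with TMM and tested with edgeR 4.0.16 in R 4.3.3 (4 group coefficients, two-sided quasi-likelihood test, Benjamini-Hochberg adjustment over 15522 genes, adjusted p under 0.05). The GC correction was an offset from a spline with 6 degrees of freedom. DESeq2 1.42.0, other scalings and filters, a replicate block and leaving out each mouse were alternatives. The fit was tested on simulated data.

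The members and gene lists were chosen with earlier results of these data known. The named genes were all members, Alas2, Hmox1, Hpx, Cyp1a1, Cyp1a2, Cyp2b10, Nr1d1 and Ppargc1a, the 3 called genes of each other list and marker list with the largest absolute log2FC, and the 2 genes most like each member; Reln and Serpina1c, outside this rule, complete their counts. Blvra and Slc25a37, also outside this rule, were named after their values were seen. The longer NRF1 motif was added after the matches of the short one were seen. Mice of a group differed by more than sampling noise (chi-square per degree of freedom at least 18.7 over 40 pairs) and each was counted as 1 replicate. The number of PCB 126 replicate 2 differs between its labels, and its title was followed. The labels give 12 weeks of exposure and the methods 10. Another enzyme of the chain, and some list genes that the rule names, are not reported here.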

Additional observations from a re-analysis of the deposited data

Results flagged for a closer look

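In 60 sets of 5 mice (15 genes in 4 groups), 4 single values stood apart from the other 4 mice of their group by Dixon's criterion, which by chance marks about 1 set in 20. None was a heme synthesis enzyme. Cyp1a1 was at 314 CPM in HFD + PCB 126 replicate 4, against 4.09 to 62.1 CPM in the others, and at 2.62 CPM in HFD + Aroclor + PCB 126 replicate 5, against 0.792 to 1.19 CPM. Hpx was at 5478 CPM in HFD control replicate 5, against 3409.6 to 3918 CPM, and at 7209 CPM in HFD + Aroclor replicate 3, against 3322 to 4303 CPM.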

How the results depend on the processing

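The number of enzymes changed was 0 after Aroclor, after PCB 126, between the combined exposure and Aroclor and for the interaction under every alternative run. In the combined exposure against HFD control it was 5 under every other scaling, filter and tool, but 1 after GC correction and 1 after GC correction with the replicate block, and 0 with the GC slope of the library as a covariate. Without single mice it was 3 to 5. Against PCB 126 it was 3 or 4, but 0 under each of the 3 GC alternatives, and 0 to 4 without single mice. With the slope as covariate, 4 enzymes of the combined exposure changed sign against HFD control (Alad 0.50, Uros 0.048, Urod 0.26, Ppox 0.19) and 6 against PCB 126 (Alad 0.17, Uros 0.0042, Urod 0.064, Ppox 0.19, and Cpox and Fech, given below); slope and exposure overlap, and the cause was not tested.

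Same-numbered mice deviated together in some pairs and not in others (r from -0.26 to 0.74, 13 of 30 correlations over 0.1). Of the 20 libraries, 10 correlated best with a library of their own number. Each was compared with the libraries of the other groups, among which each of the 5 numbers was equally frequent. The labels do not say what the numbers stand for, and whether they mark a shared handling was not tested. With the replicate block the enzymes changed stayed at 5 against HFD control and 3 against PCB 126 for the combined exposure, and Alad was at -0.90 against HFD control.

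Smaller log2FC changed sign as well. For Aroclor, the slope covariate gave 0.025 for Alas1, 0.31 for Alad, 0.11 for Urod and 0.016 for Ppox; Uros was -0.016 under upper-quartile scaling and -0.0085 to 0.085 without single mice. For PCB 126, Alad was -0.012 under the FPKM filter, -0.00122 under filterByExpr, -0.030 under upper-quartile scaling and -0.19 to 0.13 without single mice. Urod was -0.00290 under the FPKM filter, -0.021 under upper-quartile scaling and -0.075 to 0.088 without single mice, and Uros 0.0032 under GC correction with the block, 0.043 with the covariate and -0.044 to 0.049 without single mice. Of the combined exposure against PCB 126, Cpox was -0.062, -0.057 and -0.070 and Fech -0.084, -0.085 and -0.080 under GC correction, that with the block and the covariate; Cpox was -0.010 to 0.15 without single mice. Against Aroclor, Alad was 0.19 with the covariate, and Fech was -0.013, -0.016 and -0.032 under the same 3 settings. In all, 297 of 350 values kept direction and call under other settings and 295 of 340 without 1 mouse.

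Counts over all genes moved more. For Aroclor (0) they were 143 with DESeq2, 26 with the block, 23 with GC correction and block and 484 with the covariate. For PCB 126 (18) they were 310 with DESeq2, 47 under the FPKM filter, 68 under filterByExpr, 48 with GC correction, 116 with GC correction and block, 101 with the block, 765 with the covariate, 9 under upper-quartile scaling, 4 with only the groups compared and 4 to 131 without single mice. For the combined exposure (5089) they were 1755 with GC correction, 1803 with the block as well and 522 with the covariate; against PCB 126 (2589) they were 201, 487 and 0, and 245 to 3403 without single mice. Against Aroclor (64) they were 1343 with DESeq2, 636 under the FPKM filter, 292 under filterByExpr, 13 without a filter, 107 with RLE size factors, 251 under upper-quartile scaling, 475 with the block, 8 with GC correction, 2 with the covariate, 0 with only the groups compared and 0 to 1011 without single mice. For the interaction (0) they were 1 with DESeq2, 38 with the block and 39 with GC correction and block.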
